A study of Mus musculus with 6 samples.

Results

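The genes described here build, fold, glycosylate and dispose of proteins in the endoplasmic reticulum (ER), or sense stress in it. They are 55 genes chosen by symbol from the gene table of day 3 iGCBs, out of 24499 genes in that table, and their values had no part in how they are grouped. They fall into 8 groups by role: 3 stress sensors, 7 factors of ER-associated degradation (ERAD), 9 luminal chaperones and co-chaperones, 3 genes of the lectin chaperone cycle, 6 disulfide isomerases and oxidases, 12 genes of the translocon, the translocon-associated protein (TRAP) complex and signal peptidase, 6 subunits of oligosaccharyltransferase and 9 Alg glycosyltransferases. All 55 had a row and passed the filter on low counts.

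iGCBs are germinal center-like B cells grown in vitro from splenic naïve B cells with IL-4 (1 ng/ml) on irradiated 40LB cells, a 3T3 fibroblast line that supplies CD40L and BAFF. The control group was 3 libraries from mice with the Cγ1-Cre driver and the Rosa26-YFP LSL reporter. The cKO group was 3 libraries from mice with both of these and 2 loxP-flanked *Eif3e* alleles (Eif3e fl/fl). Both groups therefore carried the Cre and the reporter. Cre is driven from the Ig γ1 constant region locus, which is transcribed after activation, and YFP+ cells were sorted at day 3, so *Eif3e*, the gene of 1 subunit of translation initiation factor eIF3, is deleted after activation. The paper names 3 biological replicates, and each library is taken here as 1 mouse, which is not stated for these libraries. The age of the mice was not given in the sources used here.

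Proteins that enter the ER through the Sec61 channel are trimmed by signal peptidase, receive N-linked glycans from oligosaccharyltransferase and fold with the help of Hsp70 and Hsp90 family chaperones, the lectins calnexin and calreticulin, and disulfide isomerases. Proteins that fail to fold are returned to the cytosol and degraded by ERAD. When unfolded proteins build up, the sensors IRE1, PERK and ATF6 start the unfolded protein response, which raises the transcription of many of these genes, and in the B lineage the IRE1 target XBP1 is known for expanding the ER of antibody-secreting plasma cells.

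The libraries held between 39079582 and 45504570 estimated counts, and the floor of 3 counts lay between 0.0661 and 0.0763 CPM, the count scaled to library size, which covers counting error only. *Eif3e* itself was at 173, 150 and 152 CPM in the cKO libraries and at 424, 401 and 392 CPM in the controls, or 39.0% of control (log2 fold change −1.36, SE 0.0657, adjusted p = 6.71e-07 by edgeR's quasi-likelihood test with Benjamini-Hochberg adjustment over 13296 genes), so all 6 libraries stood on the side of their labels. *Xist* was high in cKO replicate 2 and control replicates 1 and 2 and near 0 in the other libraries, so the mice differed in sex within both groups. The 6 B cell markers were all detected and summed to between 4464 and 4620 CPM in cKO and between 4331 and 4687 CPM in control libraries. Singly, 3 rose and 3 fell at an adjusted p under 0.05 (50% each, against 24.1% and 24.5% of all genes tested), with log2 fold changes from −0.37 to 0.49. The 12 fibroblast markers, which 40LB cells could carry in, summed to between 92.3 and 108 CPM in cKO and between 61.1 and 122 CPM in control libraries, with 2 of the 12 at 0 in every library. The 5 measured T cell markers summed to at most 0.355 CPM in any library. The 6 myeloid markers summed to between 4.08 and 6.06 CPM in cKO and between 1.22 and 2.45 CPM in control libraries, led by *Adgre1*. The 5 germinal center markers summed to between 261 and 274 CPM in cKO and between 305 and 356 CPM in control libraries. Singly, 1 of them rose and 3 fell (20% and 60%, against 24.1% and 24.5% of all genes tested). The part of other cells in the results below was not tested.

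The 55 genes did not move as a block. At an adjusted p under 0.05, 9 were higher in cKO (16.4%, against 24.1% of all genes tested), 22 were lower (40.0%, against 24.5% of all genes tested) and 24 did not pass. The count of 9 fell to 5 without cKO replicate 2 and also without control replicate 2, when *Sdf2l1*, *Rpn1*, *Rpn2* and *Stt3a* did not pass. With a fold change over 1.5 as well, 2 were higher, *Alg3* and *Calr*, against 10.4% of all genes, and 7 were lower, *Herpud1*, *Ero1l*, *Eif2ak3*, *Edem1*, *Ern1*, *Stt3b* and *Edem2*, against 10.6% of all genes. *Calr*, *Stt3b*, *Edem2* and *Ern1* each came under 1.5-fold when some single library was left out. Their smallest log2 fold changes were then 0.57, −0.56, −0.54 and −0.54. The median log2 fold change was −0.16 over the 55 genes and −0.00402 over all genes tested. In 11 genes every cKO library lay above every control library and in 29 every cKO library lay below, while 15 overlapped; across all genes tested, 58.7% did not overlap in one direction or the other. Summed, the 55 genes took between 1.01% and 1.10% of the counts in cKO and between 1.05% and 1.15% in control libraries, so the groups overlapped in the total. By role, all 3 sensors and 6 of the 7 ERAD genes fell, all 3 lectin cycle genes rose, and the luminal chaperones were mostly among those that did not pass.

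**Figure D1:**
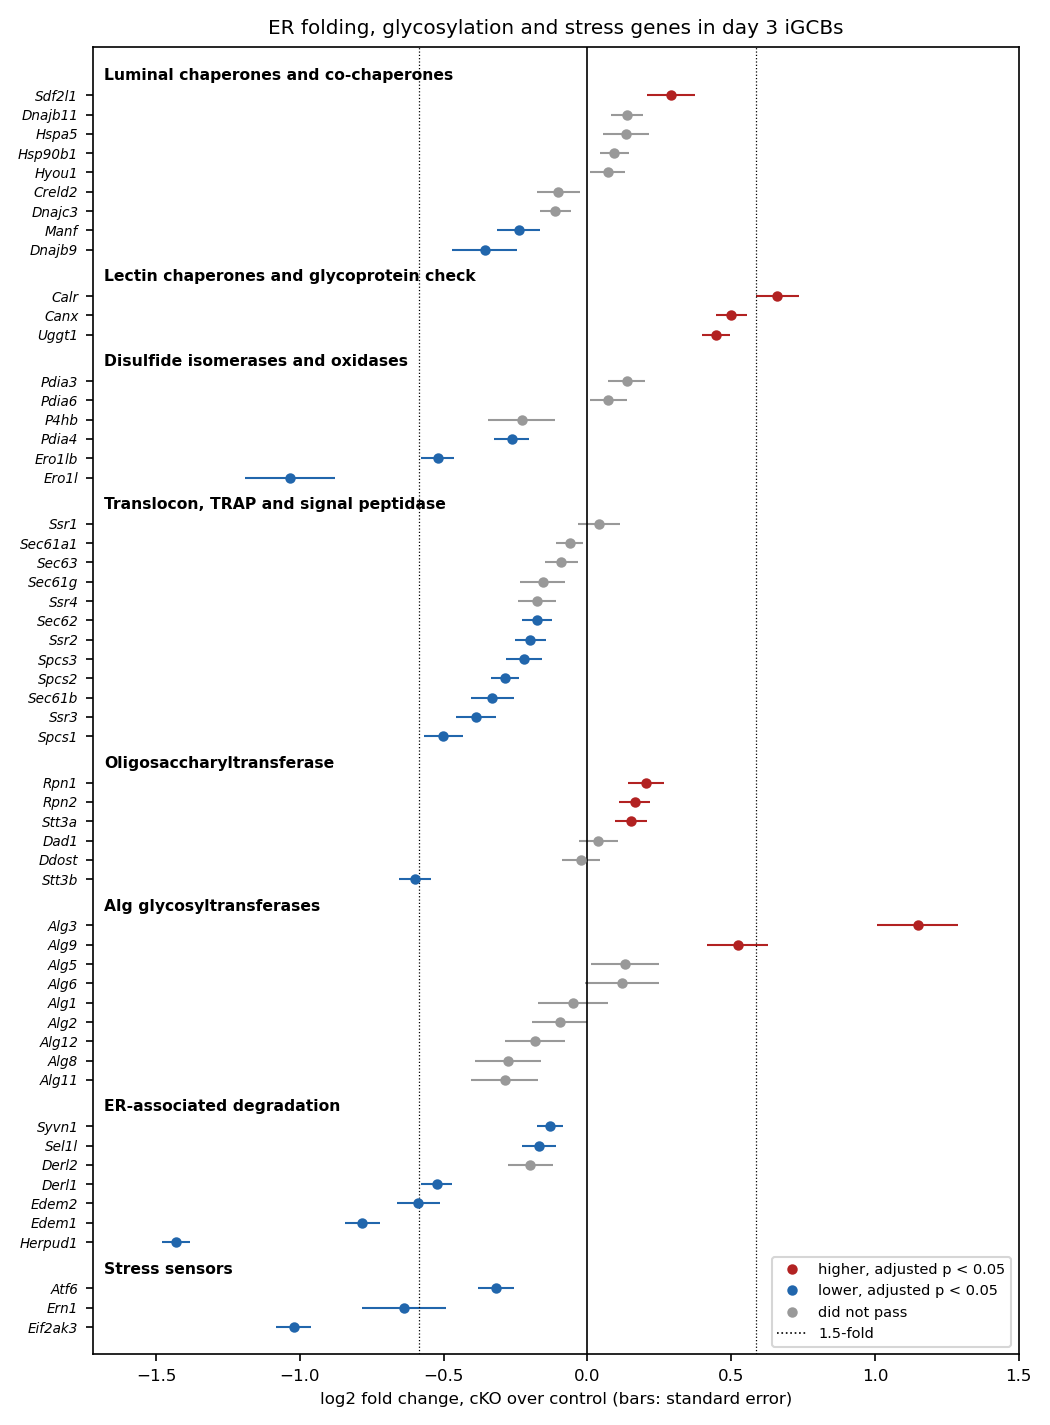
Log2 fold change of each of the 55 genes, cKO over control, with its standard error as a bar, grouped by role; dotted lines mark 1.5-fold and colors mark genes that passed an adjusted p of 0.05. The sensors and ERAD genes all lie left of 0, from −0.13 to −1.43, while *Calr*, *Canx* and *Uggt1* lie right of it, from 0.45 to 0.66.

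The 3 sensors were all lower in cKO (100%, against 24.5% of all genes tested). *Eif2ak3*, which encodes the kinase PERK that phosphorylates eIF2α under ER stress (chr6:70844515-70905245, + strand, GRCm38), was at 104, 96.0 and 107 CPM in cKO replicates 1 to 3 and at 221, 200 and 203 CPM in control replicates 1 to 3. The groups were far apart, and cKO stood at 49.3% of control (log2 fold change −1.02, SE 0.0616, adjusted p = 1.85e-06). *Ern1*, which encodes the kinase and RNase IRE1α (chr11:106394650-106487852, − strand), was at 8.66, 9.0 and 11.2 CPM in cKO and at 16.8, 15.4 and 12.6 CPM in control libraries. The highest cKO library and the lowest control library were close, and the log2 fold change was −0.64 (SE 0.146, adjusted p = 0.00460). *Atf6*, whose product is cleaved in the Golgi to release a transcription factor (chr1:170704674-170867771, − strand), was at 180, 168 and 156 CPM in cKO and at 217, 213 and 198 CPM in control libraries. It changed least of the 3, to 80.2% of control (log2 fold change −0.32, SE 0.0635, adjusted p = 0.00211).

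In a list of 13 other regulators of the response, of which 12 could be tested, 7 fell and 1 rose (58.3% and 8.33%, against 24.5% and 24.1% of all genes tested). The list is not confined to genes downstream of the sensors, as it also holds *Atf6b* and *Mbtps1*. *Xbp1*, the transcription factor whose mRNA IRE1α splices, was at 121, 139 and 119 CPM in cKO and at 282, 264 and 263 CPM in control libraries. All 3 cKO libraries lay below all controls, at 46.7% of control (log2 fold change −1.10, SE 0.0674, adjusted p = 1.94e-06). *Ddit3*, which encodes CHOP, a transcription factor induced through PERK and ATF4, was at 10.3, 9.96 and 13.0 CPM in cKO and at 38.9, 33.8 and 46.6 CPM in control libraries. It fell 3.59-fold with no overlap (log2 fold change −1.84, SE 0.143, adjusted p = 5.88e-06). *Atf4* itself, which is controlled largely at translation, was at 634, 669 and 641 CPM in cKO and at 627, 560 and 611 CPM in control libraries. These groups were close and did not pass (log2 fold change 0.11, 95% interval −0.01 to 0.23, adjusted p = 0.105). *Mbtps1*, the Golgi protease that cleaves ATF6, fell from 109 ± 6.21 to 76.7 ± 4.22 CPM (SD, n = 3 each, log2 fold change −0.51, adjusted p = 0.000109). *Ppp1r15a*, a phosphatase subunit that reverses eIF2α phosphorylation, was the gene that rose, from 158 ± 33.0 to 212 ± 14.9 CPM (SD, n = 3 each, log2 fold change 0.42, adjusted p = 0.0163). It did not pass with DESeq2 (adjusted p = 0.0504) or without cKO replicate 3, control replicate 1 or control replicate 2 (adjusted p from 0.0577 to 0.0712). *Ppp1r15b*, the other such subunit in the list, fell from 391 ± 10.1 to 307 ± 22.4 CPM (SD, n = 3 each, log2 fold change −0.35, adjusted p = 0.000847).

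**Figure D2:**
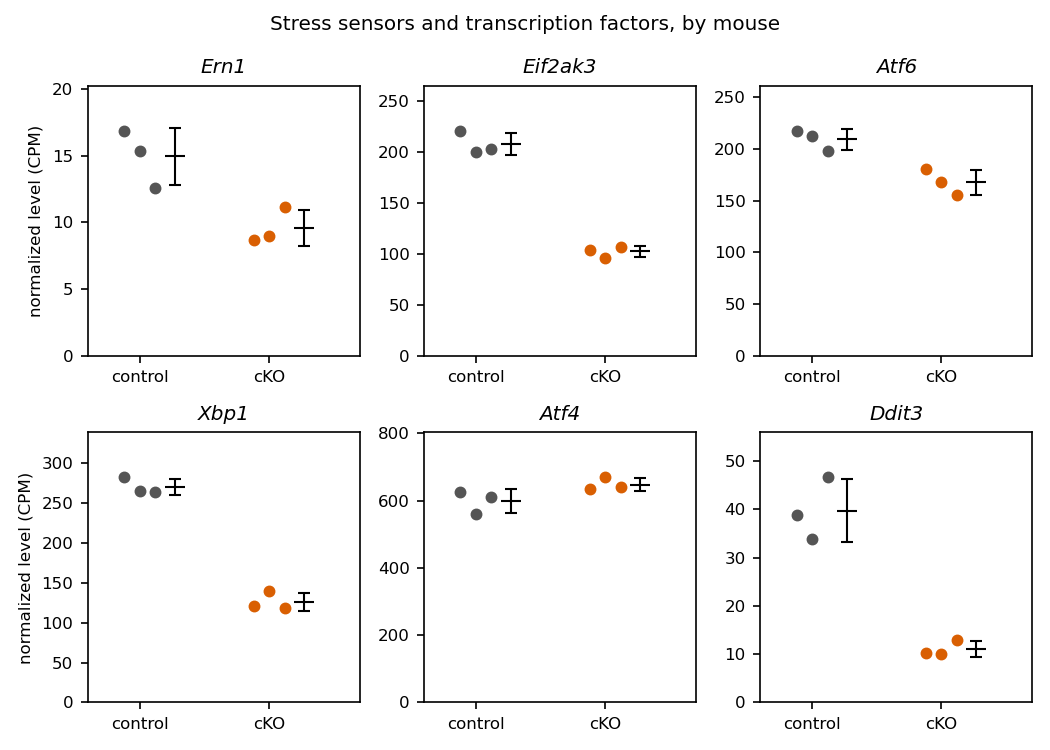
Normalized level in CPM (vertical axes, from 0) of *Ern1*, *Eif2ak3*, *Atf6*, *Xbp1*, *Atf4* and *Ddit3* in 3 control and 3 cKO mice; points are mice in order of replicate number and bars give mean and SD. The cKO points lie below every control point for each gene but *Atf4*, whose cKO points run from 634 to 669 CPM and control points from 560 to 627 CPM.

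The RNA level of *Xbp1* does not say how much of it was spliced. The transcript table lists 2 RefSeq transcripts of *Xbp1*, and gives all counts, between 5030 and 6259 in cKO and between 10389 and 12720 in control libraries, to the unspliced one, while the IRE1-spliced one is listed at 0 in every library. The spliced form differs by a short cytoplasmic excision, and a share of 0 in every library was taken here as not resolved by these counts.

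Of the 7 ERAD genes 6 fell (85.7%, against 24.5% of all genes tested), and the median log2 fold change of the group was −0.52. *Herpud1*, an ER membrane protein that holds the Hrd1 ligase complex together and is itself a classical target of the response (chr8:94386438-94395377, + strand), was at 175, 189 and 184 CPM in cKO and at 489, 501 and 490 CPM in control libraries. It had the largest decrease of the 55 genes, to 37.1% of control (log2 fold change −1.43, SE 0.0492, adjusted p = 2.31e-07), and the mice within each group were close to each other. *Edem1*, which directs misfolded glycoproteins to degradation by their mannose residues, was at 198, 190 and 176 CPM in cKO and at 332, 304 and 336 CPM in control libraries. The groups did not overlap (log2 fold change −0.78, SE 0.0607, adjusted p = 5.97e-06). *Edem2*, which starts that mannose trimming, was at 35.2, 31.0 and 33.2 CPM in cKO and at 48.9, 50.4 and 50.1 CPM in control libraries. Its log2 fold change of −0.59 (SE 0.0758, adjusted p = 0.000135) placed it just past 1.5-fold.

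The remaining ERAD genes moved less. *Derl1*, a subunit of the retrotranslocation channel, fell from 228 ± 12.0 to 159 ± 4.46 CPM (SD, n = 3 each, log2 fold change −0.52, adjusted p = 3.27e-05). *Sel1l* and *Syvn1*, the adaptor and the ubiquitin ligase of the Hrd1 complex, had log2 fold changes of −0.17 and −0.13 with adjusted p of 0.0349 and 0.0351, and these calls were lost in 6 and 8 of 15 alternatives. *Syvn1* also shares 91 exonic bases with *Mrpl49* on the other strand. *Derl2* had a log2 fold change of −0.20 and did not pass (95% interval −0.38 to −0.02, adjusted p = 0.0636). In 24 measured genes of a list of other ERAD factors, 7 fell and 5 rose (29.2% and 20.8%, against 24.5% and 24.1% of all genes tested). *Ube2j1*, the ER ubiquitin-conjugating enzyme, fell from 174 ± 8.77 to 114 ± 1.84 CPM (log2 fold change −0.61, adjusted p = 1.26e-05) and the lectin *Os9* from 151 ± 3.23 to 110 ± 5.23 CPM (log2 fold change −0.46, adjusted p = 7.33e-05; SD, n = 3 each). *Tmub1* and *Rnf5*, both of the membrane ubiquitin machinery, fell by 0.69 and 0.47 on the log2 scale with adjusted p of 0.000722 and 0.00320.

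The promoter of *Herpud1* is shown because it was the only one among the 46 genes with a promoter in the RefSeq table used here (GRCm38.p6, 250 bases before to 50 after each RefSeq gene start, from which all distances are counted) to hold letters of both an ATF4 site and a type II ER stress response element (ERSE-II). The stretch runs from 122 to 32 bases upstream of the start, at chr8:94386307-94386397 on the + strand. Capitals mark, from left to right, the ATF4 site (TGATGCAA, here read on the opposite strand) and ERSE-II (ATTGG, 1 base, CCACG).
Herpud1 promoter: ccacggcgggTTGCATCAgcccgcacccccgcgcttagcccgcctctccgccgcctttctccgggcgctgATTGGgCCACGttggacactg
Over all 27025 genes with a promoter in that table, 1.03% held the ATF4 site and 0.0444% held ERSE-II, on either strand. *Dnajb11* was the other of the 46 genes with ERSE-II, 7 bases past its start, and it did not pass the test (log2 fold change 0.14, adjusted p = 0.0586, and 0.0494 without control replicate 3). A match is a string of letters and says nothing of binding in these cells.

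**Figure D3:**
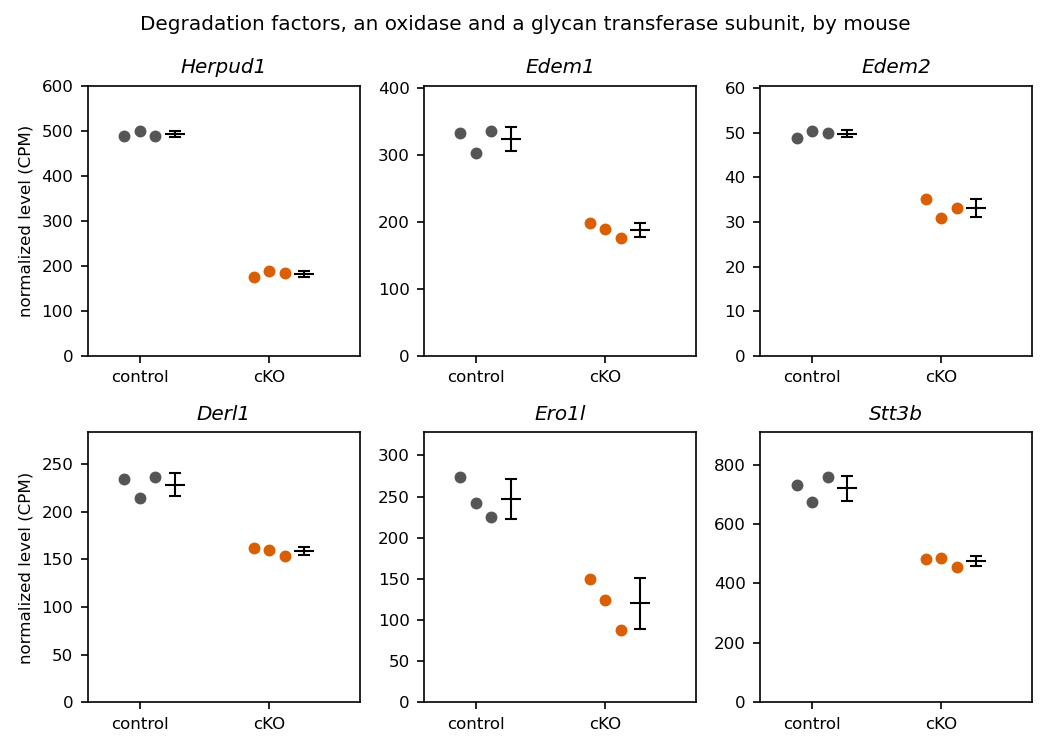
Normalized level in CPM (vertical axes, from 0) of the ERAD genes *Herpud1*, *Edem1*, *Edem2* and *Derl1*, the oxidase *Ero1l* and the oligosaccharyltransferase subunit *Stt3b* in 3 control and 3 cKO mice; points are mice, bars mean and SD. No cKO point reaches a control point in any panel, and *Ero1l* has the widest cKO spread, from 87.7 to 149 CPM.

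Of the 9 luminal chaperones *Sdf2l1* rose (11.1%, against 24.1% of all genes tested), *Dnajb9* and *Manf* fell (22.2%, against 24.5%) and 6 did not pass. Their log2 fold changes ran from −0.36 to 0.29, with a median of 0.07. *Hspa5*, which encodes BiP, the ER Hsp70 and the usual readout of the response (chr2:34771970-34777547, + strand), was at 1049, 1114 and 995 CPM in cKO and at 934, 855 and 1089 CPM in control libraries. Control replicate 3 lay within the cKO values, and the log2 fold change was 0.13 (SE 0.0803, 95% interval −0.05 to 0.31, adjusted p = 0.199). This rested on that library: without control replicate 3 the log2 fold change was 0.24 and *Hspa5* passed (adjusted p = 0.0102). Between libraries with *Xist*, 1 cKO against 2 controls, the difference in *Hspa5* was 0.32, and between those without it, 2 cKO against 1 control, it was −0.09; the second value rests on control replicate 3 alone for its control side, so it adds no separate check. *Hsp90b1*, which encodes GRP94, the ER Hsp90 (chr10:86690209-86705509, − strand), was at 606, 615 and 576 CPM in cKO and at 569, 535 and 581 CPM in control libraries. Its groups overlapped (log2 fold change 0.09, SE 0.0504, 95% interval −0.02 to 0.21, adjusted p = 0.158).

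Among the smaller chaperones, *Dnajb9*, an Hsp40 co-chaperone of BiP that acts on IRE1 and is a known XBP1 target, was at 55.2, 44.3 and 54.7 CPM in cKO and at 70.7, 55.4 and 71.6 CPM in control libraries. The highest cKO library and control replicate 2 were nearly level (log2 fold change −0.36, SE 0.114, adjusted p = 0.0248). *Manf*, a secreted stress-inducible factor, had a log2 fold change of −0.24 (adjusted p = 0.0228), and *Sdf2l1*, a partner of BiP and ERdj3, rose by 0.29 (adjusted p = 0.0161). Each of these 3 calls was lost when some single library was left out. *Hyou1*, *Dnajc3*, *Dnajb11* and *Creld2* lay between −0.11 and 0.14.

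The lectin cycle, which holds glycoproteins until they fold, was the group in which all 3 genes rose (100%, against 24.1% of all genes tested). *Calr*, calreticulin, the soluble lectin (chr8:84841850-84846934, − strand), was at 1220, 1321 and 1226 CPM in cKO and at 787, 707 and 889 CPM in control libraries. It rose 1.58-fold with no overlap (log2 fold change 0.66, SE 0.0748, adjusted p = 5.90e-05). *Canx*, calnexin, the membrane-bound lectin (chr11:50293961-50325673, − strand), was at 690, 722 and 654 CPM in cKO and at 486, 464 and 509 CPM in control libraries. It rose 1.41-fold, again with no overlap (log2 fold change 0.50, SE 0.0546, adjusted p = 4.56e-05). *Uggt1*, the glucosyltransferase that sends unfolded glycoproteins back to the lectins, rose from 154 ± 2.93 to 210 ± 7.05 CPM (SD, n = 3 each, log2 fold change 0.45, adjusted p = 4.49e-05). *Pdia3*, the disulfide isomerase that works with both lectins, did not pass (log2 fold change 0.14, 95% interval −0.01 to 0.28, adjusted p = 0.109), but it passed without control replicate 3 (0.19, adjusted p = 0.0413). Within the libraries with and without *Xist*, *Calr* differed by 0.82 and 0.46 and *Canx* by 0.60 and 0.40; without overlap between the groups the direction was fixed.

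**Figure D4:**
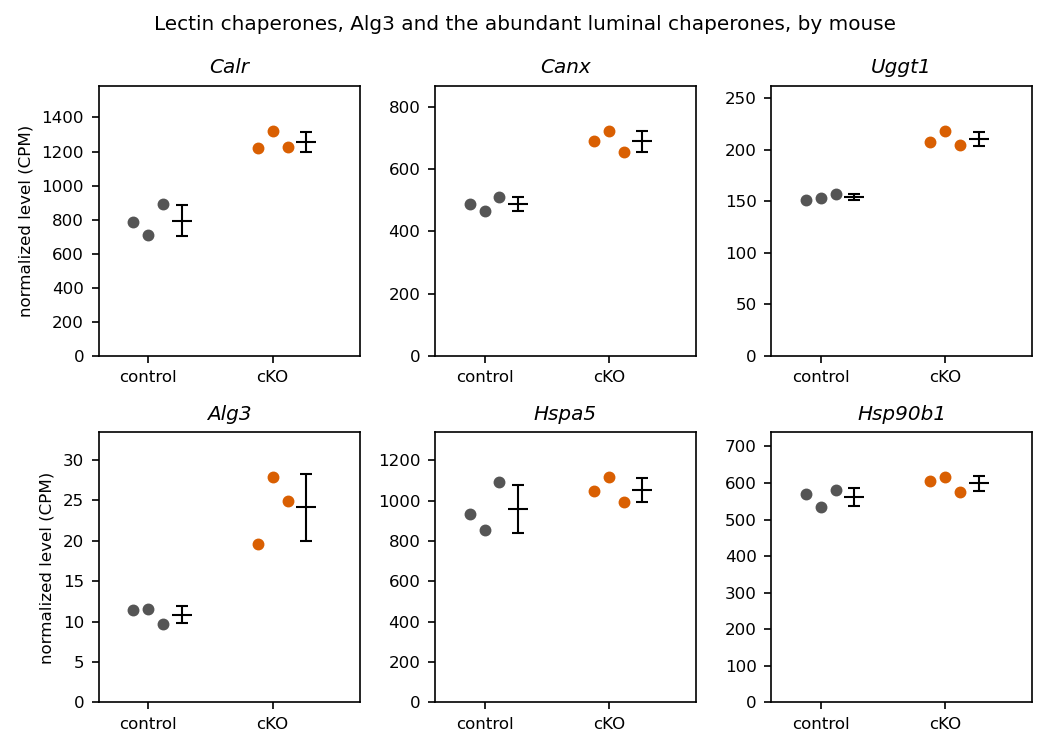
Normalized level in CPM (vertical axes, from 0) of *Calr*, *Canx*, *Uggt1*, *Alg3*, *Hspa5* and *Hsp90b1* in 3 control and 3 cKO mice; points are mice, bars mean and SD. The cKO points stand above all control points for *Calr*, *Canx*, *Uggt1* and *Alg3*, and the groups overlap for *Hspa5* and *Hsp90b1*.

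Of the genes for chaperones and lectins, several carry the classical ER stress response element (ERSE: CCAAT, any 9 bases, then CCACG) in the promoter window, searched on both strands. It was found in 10 of the 46 genes with a promoter, or 21.7%, and in 0.119% of all 32851 promoters. Of these 10 genes 2 rose, 2 fell and 6 did not pass, shares near the 24.1% and 24.5% of all genes tested, with a median log2 fold change of −0.01 and a range from −0.52 to 0.66. The 36 genes with a promoter and no ERSE had a median of −0.17, with 7 higher and 15 lower, to be read against the same shares of all genes. The sequences below are shown because they set the same element beside unlike changes; capitals mark the 2 fixed parts of the element, each with 10 flanking bases, written on the strand that reads CCAAT first.
Hsp90b1, the nearer of 2 elements, chr10:86705523-86705561, + strand, 107 to 89 bases upstream: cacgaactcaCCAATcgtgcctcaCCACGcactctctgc
Calr, chr8:84847065-84847103, + strand, 162 to 144 bases upstream: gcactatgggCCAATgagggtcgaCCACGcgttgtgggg
Canx, chr11:50325790-50325828, − strand, 145 to 127 bases upstream: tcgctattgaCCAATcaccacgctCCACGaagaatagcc
Ero1lb, chr13:12565672-12565710, − strand, 201 to 183 bases upstream: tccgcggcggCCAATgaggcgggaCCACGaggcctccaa
Syvn1, chr19:6046522-6046560, + strand, 44 to 26 bases upstream: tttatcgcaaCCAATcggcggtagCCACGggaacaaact
Alg12 and Creld2, chr15:88819510-88819548, − strand: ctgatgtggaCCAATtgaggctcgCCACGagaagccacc
*Alg12* and *Creld2* start on opposite strands from a shared region, so they share 1 element, 220 to 202 bases upstream of *Alg12* and 126 to 108 upstream of *Creld2*, and neither passed the test (log2 fold changes −0.18 and −0.10). *Pdia6* and *Dnajc3* held the element too, and neither passed. In *Hspa5* it lay 65 to 47 bases upstream of the RefSeq start, which is 120 bases downstream of the GENCODE start given above, so by GENCODE it falls within the first exon; it is not printed. The unfolded protein response element TGACGTGG was in none of the 46 genes and in 0.714% of all 27025 genes with a promoter. No promoter of *Alg2*, *Alg11*, *Atf6*, *Derl1*, *Hyou1*, *Manf*, *Sec61a1*, *Spcs3* or *Ssr2* was matched.

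**Figure D5:**
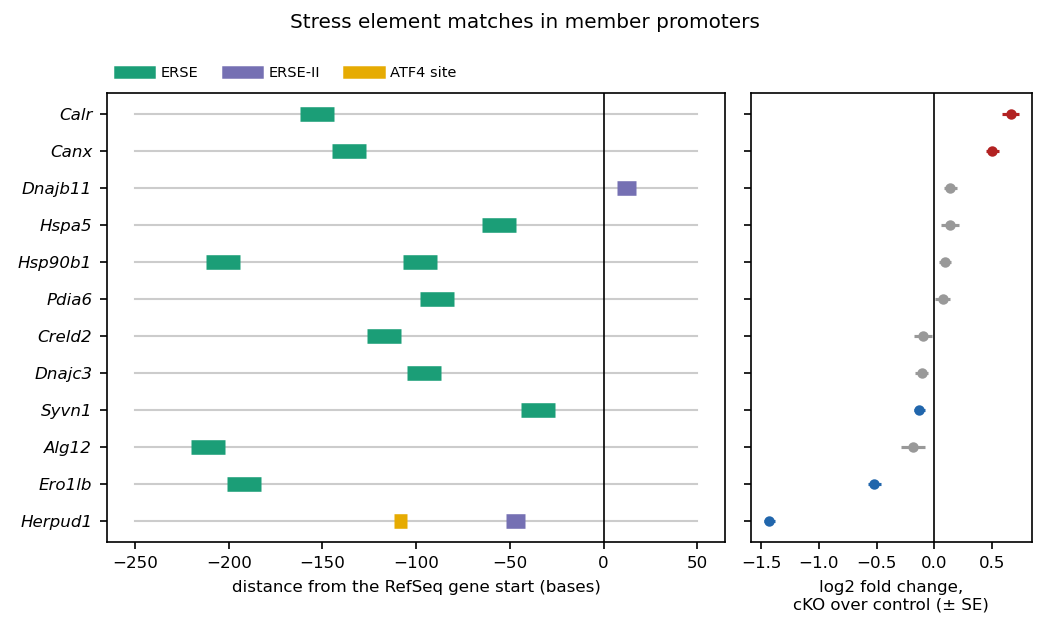
Left, position of each ERSE, ERSE-II and ATF4 site match in the promoters of the 12 genes that hold ERSE or ERSE-II, in bases from the RefSeq start (0); right, log2 fold change of the same gene, cKO over control, with its standard error. Genes are ordered by fold change, and ERSE occurs both in *Calr*, at 0.66, and in *Ero1lb*, at −0.52.

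Of the 6 disulfide isomerases and oxidases 3 fell (50%, against 24.5% of all genes tested) and none rose. *Ero1l*, which encodes ERO1α, the oxidase that recharges protein disulfide isomerase (chr14:45283087-45318771, − strand), was at 149, 125 and 87.7 CPM in cKO and at 273, 242 and 226 CPM in control libraries. It varied widely among the cKO mice, yet all 3 lay below the controls (log2 fold change −1.03, SE 0.157, adjusted p = 0.000378). *Ero1lb*, the related ERO1β, fell from 151 ± 4.38 to 105 ± 5.87 CPM (SD, n = 3 each, log2 fold change −0.52, adjusted p = 4.97e-05). *Pdia4* had a log2 fold change of −0.26 (adjusted p = 0.00460), while *P4hb*, *Pdia3* and *Pdia6* did not pass, with log2 fold changes of −0.23, 0.14 and 0.07. *P4hb*, the main disulfide isomerase, ran from 335 to 494 CPM in cKO and from 447 to 516 CPM in control libraries, its 95% interval was −0.49 to 0.03, and it passed without cKO replicate 1 (−0.37, adjusted p = 0.0185).

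In a list of other folding factors, 26 of 28 could be tested, and 11 fell and 3 rose (42.3% and 11.5%, against 24.5% and 24.1% of all genes tested). *Mzb1*, a BiP co-factor of B cells that helps immunoglobulin assembly, fell from 516 ± 20.2 to 337 ± 21.0 CPM (SD, n = 3 each, log2 fold change −0.62, adjusted p = 1.97e-05). *Txndc11*, a thioredoxin domain protein, had a log2 fold change of −0.79 (adjusted p = 4.20e-05) and *Prdx4*, a peroxidase of the ER, one of −0.57 (adjusted p = 0.000413). *Dnajc1*, a membrane co-chaperone of BiP, rose by 0.58 (adjusted p = 0.000216).

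In the translocon, TRAP and signal peptidase group, 11 of 12 log2 fold changes lay below 0, and 7 fell (58.3%, against 24.5% of all genes tested) and none rose (against 24.1%), with a median of −0.19. *Spcs1*, a signal peptidase subunit, changed most in this group, at 41.8, 42.6 and 40.1 CPM in cKO and at 61.0, 57.6 and 57.5 CPM in control libraries. The groups did not overlap (log2 fold change −0.50, SE 0.0664, adjusted p = 0.000160), but *Spcs1* shares 252 exonic bases with *Glt8d1* on the other strand, and whether the counting used strand is not stated. The other signal peptidase subunits, *Spcs2* and *Spcs3*, had log2 fold changes of −0.29 and −0.22, with adjusted p of 0.000705 and 0.0153. Of the TRAP complex, which assists the channel, *Ssr3* had −0.39 (adjusted p = 0.00109) and *Ssr2* −0.20 (adjusted p = 0.0127), while *Ssr1* and *Ssr4* did not pass. Of the channel, *Sec61b* had −0.33 (adjusted p = 0.00424) and its partner *Sec62* −0.18 (adjusted p = 0.0164), while the pore subunit *Sec61a1*, *Sec61g* and *Sec63* did not pass, with log2 fold changes of −0.06, −0.16 and −0.09. Of the 7 calls in this group 3 were lost when 1 library was left out, *Ssr2* without control replicate 1, *Spcs3* without cKO replicate 3 or control replicate 1, and *Sec62* without cKO replicate 2 or control replicate 2.

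In the list of other targeting and insertion factors, 31 were tested, 8 fell and 16 rose (25.8% and 51.6%, against 24.5% and 24.1% of all genes tested), with a median log2 fold change of 0.21. *Sec11c*, a catalytic subunit of signal peptidase, rose from 131 ± 7.45 to 210 ± 6.38 CPM (SD, n = 3 each, log2 fold change 0.67, adjusted p = 9.08e-06), the opposite of the 3 other subunits above. *Sec11a*, the other catalytic subunit, did not pass (log2 fold change 0.09, adjusted p = 0.290). *Ubl4*, of the tail-anchor insertion pathway and listed in the table as *Ubl4a*, rose by 0.59 (adjusted p = 0.00354). *Tram2*, a translocating chain-associated protein, fell from 20.7 ± 2.64 to 8.64 ± 0.0990 CPM (SD, n = 3 each, log2 fold change −1.26, adjusted p = 1.93e-05), and *Emc10*, of the ER membrane complex, had a log2 fold change of −0.58 (adjusted p = 0.000309).

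Of the 6 oligosaccharyltransferase subunits 3 rose (50%, against 24.1% of all genes tested) and 1 fell (16.7%, against 24.5%), and the catalytic subunits were on opposite sides. *Stt3b*, which glycosylates sites after translocation (chr9:115242581-115310421, − strand), was at 482, 487 and 457 CPM in cKO and at 731, 673 and 756 CPM in control libraries. It fell to 66.0% of control with no overlap (log2 fold change −0.60, SE 0.0549, adjusted p = 1.56e-05). *Stt3a*, which glycosylates chains as they enter, was at 241, 229 and 216 CPM in cKO and at 204, 199 and 214 CPM in control libraries. The lowest cKO library lay just above the highest control, and the log2 fold change was 0.15 (SE 0.0550, adjusted p = 0.0430), a call that was lost in 7 of 15 alternatives. On a scale per transcript length (TPM), *Stt3b* went from 355 ± 17.1 to 232 ± 6.48 and *Stt3a* from 73.0 ± 1.91 to 80.1 ± 4.46 (SD, n = 3 each), so *Stt3b* stayed the more abundant. *Rpn1* and *Rpn2*, shared subunits, rose by 0.20 and 0.16 (adjusted p = 0.0191 and 0.0271). The call of *Rpn1* was lost without cKO replicate 2 or control replicate 2 (adjusted p = 0.0772 and 0.0806), and that of *Rpn2* in 5 of 15 alternatives. *Ddost* and *Dad1* did not pass, with log2 fold changes of −0.02 and 0.04.

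The Alg enzymes, which build the lipid-linked glycan that is transferred, included the largest increase of the 55 genes, but as a group 2 of 9 rose (22.2%, near the 24.1% of all genes tested) and none fell (against 24.5%). *Alg3*, the mannosyltransferase that takes the first luminal step of that glycan (chr16:20605374-20611735, − strand), was at 19.7, 27.8 and 24.9 CPM in cKO and at 11.4, 11.5 and 9.67 CPM in control libraries. It rose 2.22-fold with no overlap (log2 fold change 1.15, SE 0.141, adjusted p = 9.61e-05). *Alg9*, which adds later mannoses, rose from 24.9 ± 2.12 to 35.7 ± 4.01 CPM (SD, n = 3 each, log2 fold change 0.52, adjusted p = 0.00227), and it shares 500 exonic bases with *1110032A03Rik* on the other strand. The other 7 Alg genes did not pass, and their log2 fold changes ran from −0.29 for *Alg11* to 0.13 for *Alg5*.

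In a list of 30 other N-glycosylation genes, 8 fell and 5 rose (26.7% and 16.7%, against 24.5% and 24.1% of all genes tested). *Dpagt1*, which starts the lipid-linked glycan, rose by 0.41 (adjusted p = 0.0102), while *Gmppa*, of GDP-mannose synthesis, and *Srd5a3*, of dolichol synthesis, fell by 0.63 and 0.81 on the log2 scale (adjusted p = 0.000155 and 0.00177). *Dpm1*, of dolichol-phosphate-mannose synthesis, had a log2 fold change of −1.07 with a wide error (SE 0.321, adjusted p = 0.0189), and DESeq2 gave it an adjusted p of 0.0617. It also did not pass without control replicate 1 or 2 (adjusted p = 0.0554 and 0.0752), and it differed by −2.23 between libraries with *Xist* and by −0.24 between those without. Of 30 genes of ER to Golgi transport, 10 fell and 9 rose (33.3% and 30%, against 24.5% and 24.1% of all genes tested). *Sec24a*, a cargo subunit of COPII coats, had a log2 fold change of −0.65 (adjusted p = 3.69e-05) and *Tmed3* one of −0.39 (adjusted p = 0.0146, but 0.0594 without cKO replicate 3 and 0.0521 without control replicate 3), while *Mcfd2* and *Bcap29* rose by 0.49 and 0.41 (adjusted p = 0.00174 and 0.000785). Over all 7 lists outside the 55 genes, 154 genes were tested, 52 fell and 39 rose (33.8% and 25.3%, against 24.5% and 24.1% of all genes tested).

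Per transcript length (TPM), the 4 genes highest in control libraries stood in another order in cKO. In control libraries *Hspa5* stood at 764 ± 86.9, *Calr* at 757 ± 78.8, *Herpud1* at 526 ± 12.4 and *Hsp90b1* at 414 ± 13.2, and *Hspa5* and *Calr* did not differ beyond their spread. In cKO libraries *Calr* stood at 1182 ± 38.3, *Hspa5* at 828 ± 38.2, *Hsp90b1* at 436 ± 11.8 and *Herpud1* at 193 ± 5.70 (SD, n = 3 each), where *Pdia3*, *Canx*, *P4hb*, *Ssr4*, *Sec61b*, *Pdia6*, *Stt3b* and *Rpn2* also lay above *Herpud1*. *Ern1* was the least abundant, at 4.48 ± 0.668 in control and 2.85 ± 0.417 in cKO libraries.

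Several of the genes that fell are also known from plasma cells, whose markers moved in both directions. Of 9 listed plasma cell markers 8 were tested, 5 fell and 2 rose (62.5% and 25%, against 24.5% and 24.1% of all genes tested), and their summed level was between 972 and 1141 CPM in cKO and between 1341 and 1402 CPM in control libraries. *Jchain*, the joining chain of secreted antibodies, was at 9.94, 5.98 and 5.82 CPM in cKO and at 138, 125 and 86.2 CPM in control libraries (log2 fold change −4.00, SE 0.232, adjusted p = 1.58e-06). *Prdm1*, the plasma cell repressor Blimp-1, had a log2 fold change of −1.13 (adjusted p = 0.00161), whereas *Sdc1*, the surface marker CD138, had one of 1.60 (adjusted p = 2.06e-05) and *Irf4* one of 0.42 (adjusted p = 0.00282). *Xbp1*, *Mzb1*, *Derl3*, *Jchain* and *Fkbp11* belong to both this list and the pathway lists, so the lists are not independent. *Tnfrsf17* was at or near 0 in all libraries. In sorted bulk cells, fewer cells of a type and less RNA per cell cannot be told apart, and the part of plasma cell-like cells in these differences was not tested.

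Between the libraries with *Xist* (1 cKO against 2 controls) and between those without it (2 cKO against 1 control), the sizes of the differences are given with no test. In all 31 genes that passed, the groups did not overlap, so the direction within any set of libraries was fixed and adds nothing. *Herpud1* differed by −1.39 and −1.44 in the sets, *Eif2ak3* by −1.13 and −0.94, *Alg3* by 1.24 and 1.15, and *Ern1* by −0.80 and −0.34. Transcript use within the genes was also tested: 13 of the 55 had more than 1 transcript that could be tested, and none of their 30 transcripts passed edgeR's diffSpliceDGE at an adjusted p under 0.05, against 0.606% of 7761 transcripts of all genes, with 3 of the 30 at an unadjusted p under 0.05.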

How the data were processed

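PolyA RNA of sorted YFP+ day 3 iGCBs was sequenced in 3 cKO and 3 control libraries, and groups and replicate numbers were taken from the sample titles. Per the labels and the study's methods, the authors trimmed reads, ran HISAT2 and StringTie and extracted, with prepDE, an estimated count for each gene and each RefSeq transcript; mm10 is in the submitters' processing notes, and versions, the read length setting and strand use are not given in the sources used here. The deposited tables hold these estimated counts without normalization, as whole numbers, so rounding changed nothing. The labels give both a 3-day and a longer culture; day 3 is used.

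Tests were run with edgeR 4.0.16 under R 4.3.3 (filterByExpr with a minimum count of 10, TMM, glmQLFit and glmQLFTest, no covariates, Benjamini-Hochberg over 13296 genes). A call needed an adjusted p under 0.05. SE is the log2 fold change divided by the root of F, and 95% intervals use the test's degrees of freedom. CPM values are TMM-normalized; TPM, computed here, used each gene's RefSeq transcript lengths. Alternatives were DESeq2 1.42.0 (the study's tool), its size factors, total counts, other count filters, counts divided by 2, *Jchain* left out, *Xist* as a covariate, a replicate block, glmTreat and leaving out each library; the comparison within libraries with and without *Xist* was added after the data had been seen. The fits were tested on simulated data. p-values measure the spread between libraries, each taken as 1 mouse.

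The 55 genes and the other lists were chosen with earlier results of these data known. Full values are given for genes past both thresholds, *Hspa5*, *Hsp90b1*, *Calr*, *Canx*, the sensors and the largest change in each role; outside them for *Eif3e*, *Xbp1*, *Atf4*, *Ddit3* and, per list, up to 4 genes with the largest change among calls at 10 CPM or more. Gene positions are from GENCODE M21 (GRCm38) by symbol, and 35707 of 36026 transcripts were matched to a gene. Protein sequences were not analysed here. Of the immunoglobulin chain list *Jchain* was the gene matched in the table.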

Additional observations from a re-analysis of the deposited data

How the results depend on the processing

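Of the 31 genes among the 55 that passed, 20 kept the call at an adjusted p under 0.05 in all 15 alternatives other than glmTreat, and none changed sign; DESeq2 called the same 31. Calls were lost in at least 1 alternative for *Dnajb9*, *Manf*, *Rpn1*, *Rpn2*, *Sdf2l1*, *Sec62*, *Sel1l*, *Spcs3*, *Ssr2*, *Stt3a* and *Syvn1*, whose log2 fold changes lay between −0.36 and 0.29. Another 10 passed in at least 1 of these alternatives and not in the reported test: *Hspa5*, *Dnajb11*, *Dnajc3*, *Pdia3*, *P4hb*, *Sec61g*, *Ssr4*, *Alg8*, *Alg11* and *Derl2*. Outside the 55, the named genes *Dpm1*, *Ppp1r15a* and *Tmed3* lost the call in at least 1 alternative. The count of higher genes was 9, and it ranged from 5 to 12 when 1 library was left out, at 5 without cKO replicate 2 and also without control replicate 2. The count of lower genes was 22 and ranged from 16 to 23. Past 1.5-fold as well, the higher count of 2 ranged from 1 to 3 without 1 library and the lower count of 7 from 5 to 7. Tested against 1.5-fold itself with glmTreat, 1 gene was higher and 4 lower, and over all genes 584 were higher and 580 lower; this test asks for more than the 2 thresholds by its construction. The median log2 fold change of the 55 genes ranged from −0.18 to −0.12 without 1 library. Whether replicate numbers pair the mice is not given in the sources used here. Deviations of same-numbered libraries correlated at 0.00107, 0.114 and 0.216, and cKO replicate 2 correlated best with control replicate 1. With 3 libraries a group, these values cannot decide whether the mice were paired. With the replicate block 7 genes were higher and 22 lower; *Rpn2*, *Stt3a* and *Syvn1* did not pass and *Alg8* did. Of genes that did not pass, the sign turned when 1 library was left out for *Ssr1* (range −0.0365 to 0.0978), *Ddost* (−0.0873 to 0.0193), *Dad1* (−0.0150 to 0.0988), *Alg1* (−0.18 to 0.0415) and *Alg6* (−0.00990 to 0.183); the cause was not tested. With 3 mice a group, small changes such as that of *Hspa5* passed or not by which libraries were used.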

Other observations

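Some genes outside the rule for named genes, those below and *Ppp1r15b* and *Sec11a* above, were chosen after their values were seen. In the ER membrane complex, which inserts membrane proteins, *Emc1*, *Emc3*, *Emc4*, *Emc6*, *Emc7*, *Emc8* and *Mmgt1* all rose, by 0.17 to 0.51 on the log2 scale, while *Emc10* fell by 0.58 and *Emc2* and *Emc9* did not pass (log2 fold changes −0.05 and 0.61, adjusted p = 0.710 and 0.161). The complex was no list of its own. These genes belong to the list of other targeting and insertion factors, where 51.6% rose and 25.8% fell, against 24.1% and 24.5% of all genes tested. Among low-abundance genes, *Bhlha15*, which encodes the secretory cell factor MIST1, fell from 4.00 ± 1.38 to 0.493 ± 0.155 CPM (SD, n = 3 each, log2 fold change −3.01, adjusted p = 0.000108). *Sec24d*, another COPII cargo subunit, was at 4.14, 4.80 and 4.81 CPM in cKO and at 16.6, 13.8 and 11.8 CPM in control libraries (log2 fold change −1.62, adjusted p = 2.08e-05). *Srp54a* rose by 0.50 and *Srp54b* by 0.22 on the log2 scale, and *Srp54c* did not pass at 1.08 (adjusted p = 0.386); these are near-identical copies, so how counts divide among them is uncertain.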
